A study of Mus musculus with 72 samples.

Results

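H3K27me1 sites inside short genes were the stretches of chromatin at which this histone mark differed between stressed and control mice and which lay in the body of a protein-coding gene shorter than 20 kb. They were taken from the authors' deposited tables of differing sites for susceptible against control and for resilient against control mice. A site counted when it touched such a gene on chromosomes 1 to 19, touched no longer protein-coding gene, and stayed more than 1000 bp from every protein-coding gene start in the GENCODE M21 annotation of mm10. The susceptible table held 980 such sites among 12124 autosomal sites, in 758 genes. The resilient table held 436 among 7011, in 388 genes. Together these 1416 sites stood among 36113 rows in the 5 deposited tables of the series, and they fell in 915 of the 11129 short protein-coding genes. A total of 231 genes held a site in both tables.

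The libraries were CUT&RUN libraries, in which an antibody guides a nuclease to a histone mark in isolated nuclei and the released DNA is sequenced, from the nucleus accumbens of wildtype male mice. Chronic social defeat stress exposes a male mouse repeatedly to an aggressive male, after which some defeated animals avoid others (susceptible) and some do not (resilient). The H3K27me1 comparison had 4 susceptible, 4 resilient and 4 control libraries, and both comparisons used the same 4 controls. IgG libraries served as background. A separate cohort compared mice given early life stress and subthreshold defeat (labelled ELS - SbD) with standard controls (Std - Control), with 3 H3K27me1 libraries in each group. H3K27me2 had its own susceptible, resilient and control libraries from the defeat experiment. Library numbers below are those in the sample labels. The labels give neither the age of the mice nor whether each library came from 1 mouse or a pool, so error here is the spread between libraries, which may be technical. The samples are tissue, not sorted cells as far as the labels say, so a change in the make-up of cells and a change of the mark within cells cannot be told apart. The tissue label could not be checked with these sites: none of the short-gene members of the 6 lists of cell type markers held one.

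Lysine 27 of histone H3 can carry up to 3 methyl groups. The trimethylated form is the mark of Polycomb silencing, while the monomethylated form is known from the bodies of transcribed genes, where it is read as a mark of active transcription. Short genes in neurons include many that every cell uses, such as those for mitochondrial, RNA-processing and protein-turnover machinery, whereas long genes include many for adhesion, channels and synapses.

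The sequence of the sites is shown with 6 coding stretches, from the 3 lower and 3 higher leading susceptible sites that covered at least 60 coding bases of 1 exon. They are given because the composition of the exonic bases under the sites moved with the direction of the sites. The sequence of whole sites was not read. Each was read from the GENCODE M21 transcripts, 5′ to 3′ on the gene's strand, with CG dinucleotides in capitals. Lower sites are represented by Shkbp1 (chr7:27351696-27351886, minus strand), P4htm (chr9:108580719-108580904, minus strand) and Rnf4 (chr5:34349912-34350071, plus strand). Higher sites are represented by Nfyb (chr10:82755001-82755095, minus strand), Ctbs (chr3:146454948-146455156, plus strand) and Tmem126b (chr7:90472598-90472719, minus strand).
Shkbp1: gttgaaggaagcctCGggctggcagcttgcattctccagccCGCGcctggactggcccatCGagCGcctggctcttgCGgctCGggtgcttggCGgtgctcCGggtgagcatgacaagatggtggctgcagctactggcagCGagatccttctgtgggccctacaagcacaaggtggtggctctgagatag
P4htm: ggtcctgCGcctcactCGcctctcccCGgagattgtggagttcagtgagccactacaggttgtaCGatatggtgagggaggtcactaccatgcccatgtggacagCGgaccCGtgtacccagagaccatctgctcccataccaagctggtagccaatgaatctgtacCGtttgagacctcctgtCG
Rnf4: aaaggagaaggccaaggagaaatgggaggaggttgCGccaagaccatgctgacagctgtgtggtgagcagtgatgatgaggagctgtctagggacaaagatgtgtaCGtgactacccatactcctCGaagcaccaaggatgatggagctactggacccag
Nfyb: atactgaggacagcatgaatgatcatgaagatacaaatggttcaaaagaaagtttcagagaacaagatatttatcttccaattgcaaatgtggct
Ctbs: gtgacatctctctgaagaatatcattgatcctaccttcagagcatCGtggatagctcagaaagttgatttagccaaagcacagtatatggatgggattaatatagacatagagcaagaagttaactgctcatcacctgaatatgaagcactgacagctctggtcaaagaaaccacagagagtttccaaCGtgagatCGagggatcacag
Tmem126b: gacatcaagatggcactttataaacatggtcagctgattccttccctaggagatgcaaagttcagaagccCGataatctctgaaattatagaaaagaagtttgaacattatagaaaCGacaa
The Shkbp1, P4htm and Rnf4 stretches had a GC content of 63.4%, 57% and 53.1% and held 10, 8 and 3 CG dinucleotides. The Nfyb, Ctbs and Tmem126b stretches had 33.7%, 42.1% and 36.9% GC and held 0, 3 and 2.

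In both outcomes the sites inside short genes were mostly lower than in controls. In susceptible mice 895 of the 980 sites were lower and 85 were higher, which is 8.67% higher (exact 95% interval 6.99% to 10.6%). Over all autosomal sites in susceptible mice 50.3% were higher and 49.7% lower. In resilient mice 345 of the 436 sites were lower and 91 were higher, or 20.9% (17.2% to 25%), beside 51.6% higher and 48.4% lower over all autosomal sites. These calls are the authors'. Their test, a G-test on the pooled reads of each group, gave called sites whose number was 4.48% of the number of windows tested in the susceptible comparison (2.23% lower and 2.26% higher) and 2.54% in the resilient one (1.23% and 1.31%). A site can join several overlapping windows, so these are not the shares of windows called. The intervals cover counting error only, since neighbouring sites and sites of 1 gene are not independent. The median log2 change by the authors was -0.42 over the susceptible and -0.41 over the resilient sites. Over all autosomal sites it was 0.26 and 0.30. These are not typical changes, since higher and lower called sites were nearly equal in number there. The higher of all autosomal sites had medians of 0.43 (susceptible) and 0.44 (resilient), and the lower ones -0.43 in both. Inside short genes sizes were alike on either side. The lower sites there had a median of -0.43 in both tables, and the higher sites 0.41 in the susceptible and 0.42 in the resilient table. Changes ran from -0.95 to 0.58 in susceptible and from -0.80 to 0.57 in resilient mice. On the scale of normalised reads, the median lower site in susceptible mice had 95.4 reads against 127 in controls, and the median higher site 124 against 94.3. The resilient medians were 90.6 against 122 for lower and 119 against 89.3 for higher sites. Whether susceptible and resilient mice differed from each other was not tested.

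**Figure D1:**
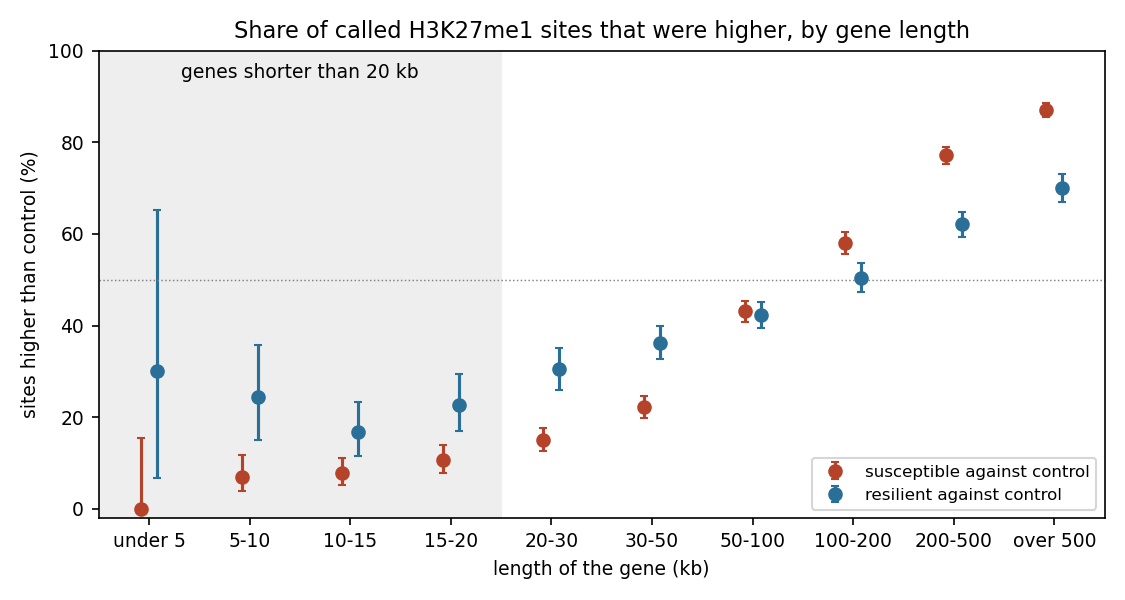
The percentage of called H3K27me1 sites that were higher than control is plotted against the length of the gene that holds them, for the susceptible and the resilient comparison, with exact 95% binomial intervals. The share of higher sites was 10.6% in susceptible genes of 15 to 20 kb and 87.2% in genes over 500 kb.

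The share of higher sites rose with gene length across the whole table in susceptible mice, as the plot of shares by gene length shows. In resilient mice it rose only from the step of 10 to 15 kb upward. In susceptible mice 0 of 22 sites in genes under 5 kb were higher, which allows a share of up to 15.4% (exact upper bound). The share was 6.99% at 5 to 10 kb, 7.82% at 10 to 15 kb and 10.6% at 15 to 20 kb. It was 15.0% at 20 to 30 kb, 43.1% at 50 to 100 kb and 87.2% over 500 kb. The resilient comparison had 3 higher sites of 10 under 5 kb, then 24.3%, 16.8% and 22.7% in the same steps up to 20 kb, and 70.1% over 500 kb. Over all genes of at least 20 kb, 56.4% of susceptible and 51% of resilient sites were higher. From just below to just above 20 kb the share went from 10.6% to 15.0% in susceptible and from 22.7% to 30.4% in resilient mice. Just under it in susceptible mice stood Gm3183 (log2 change 0.50), Coq10b (-0.47) and Mtss1l (-0.43), and just over it Pmpcb (0.37), Fuk (-0.32) and Rmdn3 (-0.42). The resilient neighbours included Ncoa4 (-0.40) and Zfp335 (-0.48) under the limit, and Fuk (-0.26), Zfp780b (-0.38) and Zwint (-0.40) over it. The lower direction also held on each chromosome. All 19 had more lower than higher sites in both comparisons, with the smallest share on chromosome 3 in susceptible (74.3% of 35 sites lower) and on chromosome 7 in resilient mice (60.6% of 33).

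**Figure D2:**
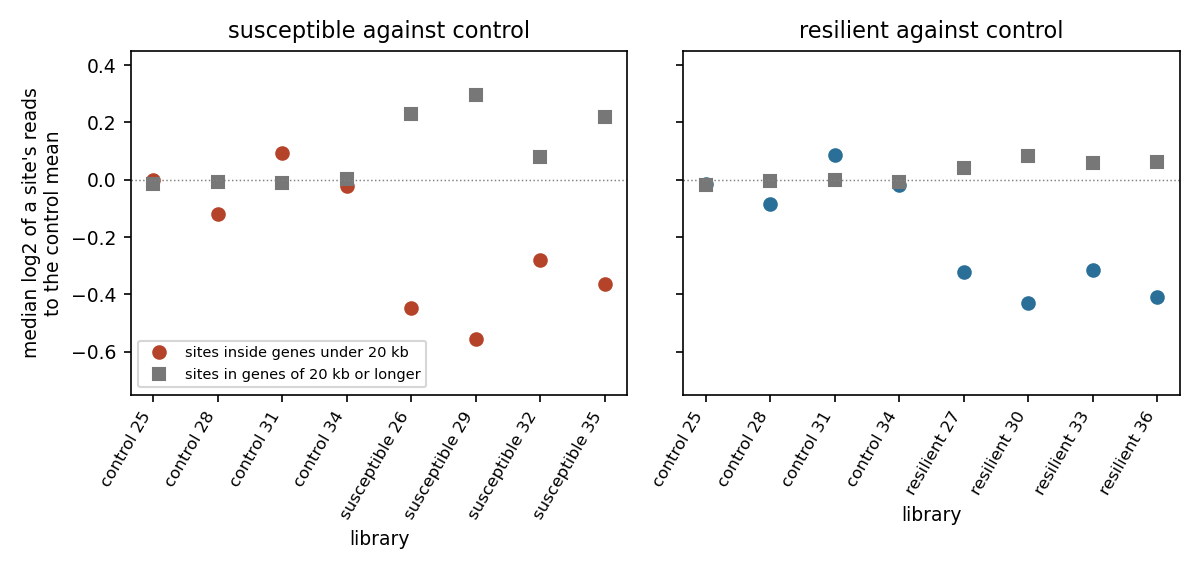
Each point is the median, over sites, of the log2 ratio of a library's normalised reads to the control mean (for a control, to the mean of the other controls), for sites inside genes under 20 kb (circles) and sites in genes of 20 kb or longer (squares). The 4 susceptible libraries lie between -0.55 and -0.28 and the 4 resilient ones between -0.43 and -0.31 at the sites inside short genes.

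The difference was carried by every stressed library, though not to the same extent. Over the 980 susceptible sites the median log2 ratio to the control mean was -0.45 in library 26, -0.55 in library 29, -0.28 in library 32 and -0.36 in library 35. The controls, each against the other 3, stood at 0.00 in library 25, -0.12 in library 28, 0.09 in library 31 and -0.02 in library 34. Library 29 lay farthest from the controls and library 32 nearest, and the groups did not overlap. The authors chose the sites on these same libraries, so that gap is a description. Sites in genes of at least 20 kb lay above the controls in the same libraries, by 0.23, 0.30, 0.08 and 0.22. Over the 436 resilient sites the medians were -0.32, -0.43, -0.31 and -0.41 in libraries 27, 30, 33 and 36. The controls stood between -0.08 and 0.09 there. Sites in genes of at least 20 kb had medians of 0.04 to 0.08 in the resilient libraries.

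Single sites had a wide spread between libraries. At 470 of the susceptible sites (48%) all 4 susceptible libraries lay below all 4 controls, and at 37 (3.78%) all lay above. At the other 473 the groups overlapped. Over all autosomal sites these shares were 26.4% and 26.4%. In the resilient comparison 191 sites (43.8%) lay wholly below and 51 (11.7%) wholly above the controls, beside 26.6% and 28.1% over all autosomal sites. These shares follow the mix of directions. Counting lower sites only, 470 of 895 (52.5%) stood apart in susceptible mice, beside 3199 of 6026 over all autosomal sites. The resilient counts were 191 of 345 (55.4%), beside 1866 of 3395. A test on the spread between libraries, limma on log2 normalised reads with a pseudocount of 1 and Benjamini-Hochberg adjustment over all windows the authors tested, passed 0 sites in either comparison (0.0% of the windows tested). The smallest adjusted limma p was 0.284 for susceptible and 0.436 for resilient sites. Each site entered this adjustment once, though it can join several overlapping windows, and windows without a called site counted as not passing. The adjusted p can therefore be too large, and 0 passing sites does not show that no site differed. Without adjustment 978 of the 980 and 435 of the 436 had limma p under 0.05, as did 98.9% and 99.7% of all autosomal sites, but the authors had already chosen these sites on the same libraries. With limma-voom the counts were 0 sites after adjustment, and 978 and 434 without it. Directions below are therefore the authors' calls, and the log2 differences with standard errors (SE) are from limma with 4 libraries in each group.

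**Figure D3:**
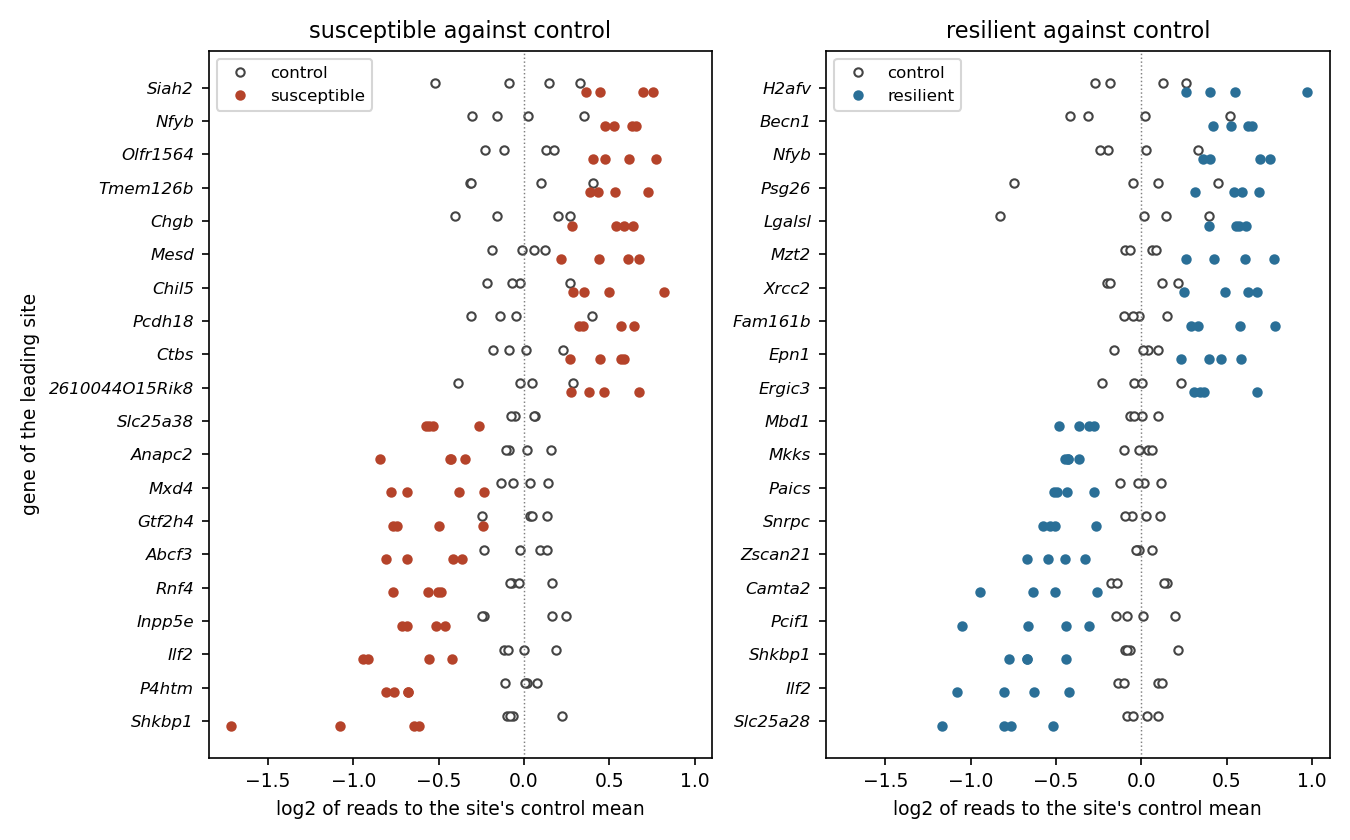
For the 10 higher and 10 lower genes of smallest limma p in each comparison, each point is the log2 ratio of a library's normalised reads at the gene's leading site to the mean of the 4 controls. Open circles are control and filled circles stressed libraries. The Shkbp1 site had the lowest values in susceptible mice, and its 4 susceptible libraries lay below the controls.

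Among lower susceptible sites the first was inside Shkbp1, which encodes a binding partner of the endocytic adaptor SH3KBP1. Its normalised reads were 48.4, 22.6, 35.1 and 47.4 in the susceptible libraries and 70.8, 69.1, 86.4 and 70.1 in the controls. All susceptible values were below all controls, and library 29 was the lowest. The log2 difference was -0.99 (SE 0.19). The site covers a coding exon and intron at chr7:27351301-27352300, 30.4% of the way along a gene of 13.9 kb. P4htm, a prolyl hydroxylase of the endoplasmic reticulum membrane, had the most even values: 48.4, 44.2, 48.4 and 45.6 reads against 71.7, 78.3, 77.9 and 81.7 (log2 difference -0.72, SE 0.16). Rnf4, a ubiquitin ligase that recognises SUMO chains, had 132.4, 110.2, 127 and 134.1 reads against 178, 177, 210 and 184 (-0.57, SE 0.13). Neither gene's groups overlapped.

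Several of the other leading lower genes act in transcription, RNA handling or protein turnover. Mxd4, a MAX partner that opposes MYC, had 197, 210, 287 and 260 reads against 324, 347, 373 and 308. Gtf2h4, a subunit of the transcription and repair factor TFIIH, had 138, 136, 196 and 164 against 238, 240, 255 and 195. Mxd4 groups stood apart, while the highest susceptible Gtf2h4 library just exceeded the lowest control. Ilf2, a subunit of a complex that binds double-stranded RNA, had 42.5, 43.4, 55.7 and 61.1 reads against 75.4, 81.8, 76.8 and 93.2 at an intronic site. Anapc2, the cullin of the anaphase-promoting complex, had 227, 172, 229 and 242 against 343, 289, 311 and 286. Both of these stood apart. Abcf3, an ATP-binding cassette protein without membrane spans, Inpp5e, the phosphoinositide phosphatase of cilia, and Slc25a38, a mitochondrial glycine carrier, had log2 differences of -0.56, -0.57 and -0.48 with no overlap of groups.

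The leading higher susceptible sites were fewer and no larger. Nfyb, a subunit of the CCAAT-binding factor NF-Y, had 89.9, 100.2, 101.6 and 93.0 reads in susceptible libraries and 57.9, 65.7, 52.3 and 82.5 in controls (log2 difference 0.59, SE 0.16). Siah2, a ubiquitin ligase of the hypoxia response, had 85.0, 80.4, 105 and 101 against 78.2, 69.1, 58.7 and 43.5 (0.59, SE 0.17). The groups were apart at both sites, by little at Siah2. Ctbs, the lysosomal chitobiase, had 153, 169, 136 and 167 reads against 131, 99.1, 113 and 106 (0.47, SE 0.14). Chgb, the secretory granule protein chromogranin B, had 2 higher sites, the leading one with 92.9, 72.2, 89.5 and 86.6 against 71.7, 44.9, 68.3 and 53.3 (0.53, SE 0.17). Its lowest susceptible value was only just above its highest control. Mesd, a chaperone of LDL receptor relatives, and the chitinase-like gene Chil5 stood apart as well, at 0.48 and 0.49. Groups overlapped at Pcdh18 (a protocadherin), Tmem126b (complex I assembly) and 2610044O15Rik8. Olfr1564 is an olfactory receptor gene, 1 of a family of close copies between which reads can be hard to place. Its site was higher by 0.57.

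In resilient mice the lower sites were led by an intron of Slc25a28, which encodes mitoferrin 2, a mitochondrial iron carrier. Its reads were 40.9, 49.9, 42.1 and 31.8 in the resilient libraries and 76.4, 67.6, 73.1 and 69.04 in controls (log2 difference -0.80, SE 0.16). Ilf2 had 57.04, 64.3, 47.04 and 74.2 against 90.5, 107, 92.7 and 108 (-0.72, SE 0.16). Snrpc, the C protein of the U1 splicing particle, had 237, 196, 191 and 200 against 290, 274, 307 and 266 (-0.47, SE 0.11). No resilient library reached the controls at these sites. Zscan21, a zinc finger protein, Mkks, a chaperonin-like protein of the BBSome pathway, Camta2, a calmodulin-binding transcription activator, Paics, an enzyme of purine synthesis, and Pcif1, a methyltransferase of the mRNA cap, had differences of -0.49, -0.42, -0.57, -0.42 and -0.60. Mbd1, which binds methylated CpG, had the deepest of the leading sites, with 335.9 to 387.1 reads against 447.9 to 503.8 and no overlap (-0.36, SE 0.09).

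Higher resilient sites again included Nfyb. Ergic3, a protein of the traffic between endoplasmic reticulum and Golgi, had 202, 205, 254 and 197 reads against 187, 154, 135 and 159 (0.43, SE 0.12). Becn1, the autophagy protein beclin 1, had 78.3, 92.0, 84.3 and 90.6 against 59.4, 43.9, 84.0 and 47.2 (0.59, SE 0.17). Ergic3 groups stood apart, whereas control library 31 lay among the resilient values at Becn1. Xrcc2, a protein of DNA repair by recombination, Epn1, the endocytic adaptor epsin 1, and Mzt2, a partner of the gamma-tubulin ring, were higher by 0.52, 0.42 and 0.51 without overlap, as was Fam161b by 0.50. Lgalsl and Psg26 were higher by 0.59 and 0.58, and their groups overlapped. Psg26 belongs to a family of close copies. H2afv, which encodes an H2A.Z histone variant, held a higher site (0.56, SE 0.17) and, nearer the gene's end, a lower one (-0.42).

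Some genes held a site in both comparisons, which share their controls, so the 2 sets of values are not independent. The Shkbp1 site had the same coordinates in both tables, and its resilient libraries read 47.7, 47.7, 55.9 and 44.3 (log2 difference -0.62, SE 0.16) beside -0.99 in susceptible mice. Ilf2 stood at -0.69 and -0.72, Tmbim6 (a Bax inhibitor of the endoplasmic reticulum) at -0.54 and -0.52, and Kansl2 (a subunit of the NSL acetyltransferase complex) at -0.55 and -0.55, susceptible before resilient. Edc4, a scaffold of mRNA decapping, stood at -0.58 and -0.55, and Hars, the histidine tRNA synthetase, at -0.38 and -0.36. Nfyb was higher in both, at 0.59 and 0.56, with resilient reads of 80.0, 77.6, 98.0 and 102.1. Of the 175 pairs of overlapping sites, 1 pair had opposite calls. It lay in Vegfa, the vascular growth factor, and is named for that after its values were seen. The susceptible site (chr17:46019701-46020800) had 67.2, 41.5, 89.5 and 50.2 reads against 94.7, 84.1, 86.4 and 91.4 in controls. The resilient site (chr17:46020401-46021700) had 122, 95.3, 127 and 108 against 68.8, 96, 69.8 and 94.5. The 2 sites overlap in part, and at each the libraries of the 2 groups overlapped.

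Most genes held a single site, and genes with several mostly had them all in 1 direction. In susceptible mice 678 genes had lower sites only, 67 higher only and 13 both. A total of 591 had 1 site, 121 had 2 and 46 had 3 or more. In resilient mice the counts were 301, 76 and 11. Gaa, the lysosomal acid alpha-glucosidase whose loss causes Pompe disease, held most: 5 lower sites in susceptible and 4 lower sites in resilient mice. Its susceptible sites had log2 differences of -0.56, -0.48, -0.51, -0.47 and -0.39 and its resilient sites -0.56, -0.44, -0.42 and -0.38. Cinp (cell-cycle kinase partner), Gtf3c4 (a TFIIIC subunit), Lztr1 (an adaptor for ubiquitination of RAS proteins) and Zfand2a each held 4 lower susceptible sites. Tars (threonine tRNA synthetase) and Eif3l (a subunit of initiation factor eIF3) each held 3 lower resilient sites. Ampd2 (AMP deaminase 2) held 2 higher and 1 lower, and Rab5b (an early endosome GTPase) 1 higher and 2 lower.

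Genes were also grouped by function. Log2 changes given for lists and their members are the authors'. The lists were made by gene name, and 227 of the 758 susceptible genes fell in one while 531 fell in none. The counts of a list are to be read against all short genes: 6.81% of all short genes held a susceptible site, and 895 of all 980 sites were lower. Of 67 short genes for mitochondrial ribosomal proteins 13 held sites, and all 16 sites were lower, with a median of -0.41 (Mrpl47 -0.47, Mrpl37 -0.57, Mrpl22 -0.51). Of 77 short genes for cytosolic ribosomal proteins 0 held a site in either table. These genes are shorter, with a median of 3.37 kb beside 7.06 kb, so less of them lies beyond the start window. Oxidative phosphorylation had 8 lower sites in 8 of 85 genes (9.41%), among them Ndufa11 (-0.42) of complex I and Uqcrfs1 (-0.54), the Rieske protein of complex III. Mitochondrial import had 5 lower sites in 3 of 21 genes, Timm9, Timm17a and Tomm34. No site of these lists was higher in susceptible mice, which with so few sites is near the 8.67% higher over all sites.

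Genes for RNA and protein handling held mostly lower sites, as did short genes as a whole, of whose sites 8.67% were higher. RNA 3′ end processing and decay held 16 lower and 0 higher sites, in 9 of 30 short genes. These include Cpsf1 (-0.35), a subunit of the complex that recognises the polyadenylation signal, and Cnot8 (-0.47), a deadenylase. Transcription machinery held 20 lower and 2 higher sites in 15 of 61 genes, splicing factors 19 and 3 in 17 of 82, and translation factors with tRNA synthetases 16 and 1 in 12 of 54. The higher exceptions were Gtf2b and Med30, Lsm8, Rbm12b1 and Rbm12b2, and Eif5a2. Ubiquitin and proteasome genes held 24 lower sites and 1 higher (Rnf146), vesicle traffic 18 and 0, chaperones 7 and 0 (Hspa8, the constitutive HSC70, -0.49), and kinases, phosphatases and their partners 13 and 0. C2H2 zinc finger genes, a family of related and often clustered repressors, held the most sites, 55 lower and 11 higher in 54 of 262 genes. Nuclear pore and transport genes held 4 lower and 1 higher in 4 of only 10 short genes. The genes of each of these lists were longer than short genes as a whole, whose median is 7.18 kb. Their median lengths ran from 8.19 kb for transcription machinery to 12.2 kb for C2H2 zinc fingers, with 11.45 kb for 3′ end processing and decay. More of such genes lies beyond the start window, and the counts of genes with a site were not adjusted for length. The list medians, from -0.37 to -0.49 over lists with at least 5 sites, sit beside -0.42 over all susceptible sites, and no list was tested.

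Lists for neuronal signalling and cell identity held few sites and few short genes. Neuropeptide genes had 2 sites, both higher and both in Chgb, in 1 of 24 short genes. Transmitter receptors had 1 lower site, in Grin3b (an NMDA receptor subunit, -0.55), among 37 short genes. Potassium channel genes had 2 lower sites and 1 higher in 3 of 36 short genes (8.33%). Immediate early genes (20 short genes, median length 4.09 kb), sodium and calcium channels (6) and histones (76) had 0 susceptible sites. Histone genes have a median length of 0.619 kb and lie mostly within the start window, so the rule leaves them almost no room for a site. The microglia, oligodendrocyte, astrocyte, vascular, medium spiny neuron and cortical or interneuron markers had 0 sites as well, with 6 to 10 short genes in each list. Chemosensory receptors had 1 site, at Olfr1564, among 1401 short genes. Immune genes had 4 lower sites in 4 of 249 genes, of which Tnfaip1, Tnfaip3 and Tnfaip8l2 are neither receptors nor cytokines. A table of differing sites does not show whether a gene without a site had the mark at all.

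The resilient comparison had fewer sites in each of the larger lists. Over all 436 resilient sites 20.9% were higher, and no list was tested. Translation factors and tRNA synthetases held 10 lower and 0 higher sites in 6 of 54 short genes, and splicing factors 8 and 0 in 8 of 82. For 3′ end processing and decay the counts were 7 and 0 in 5 of 30, and for mitochondrial ribosomal proteins 8 and 1 in 7 of 67. C2H2 zinc fingers held 25 and 6 in 29 of 262 genes, and vesicle traffic 8 and 3 in 9 of 107. Ubiquitin and proteasome genes held 13 lower and 5 higher sites in 15 of 187 genes. The higher ones were in Fbxo22, Fbxo30, Otud3, Trim13 and Usp1. Oxidative phosphorylation had 1 site (Cox15, lower by -0.30) and chromatin regulators 0, beside 6 lower in susceptible mice. Chrnb2, a subunit of nicotinic receptors, had the 1 transmitter receptor site (-0.49). In all, 119 of 388 resilient genes fell in a list, and 3.49% of all short genes held a resilient site.

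**Figure D4:**
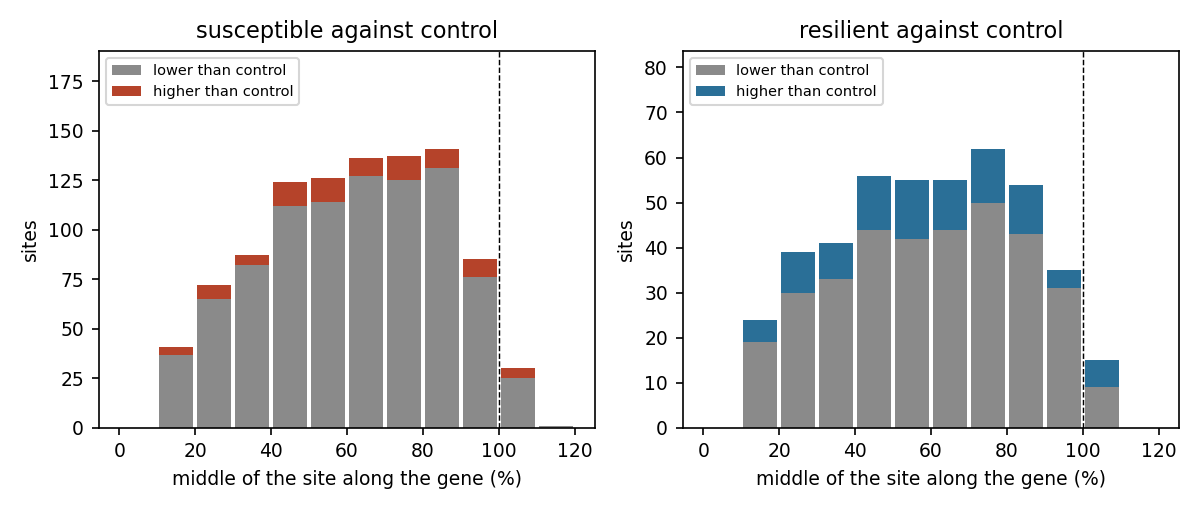
The number of sites inside short genes is plotted by the position of the site's middle along the gene, from gene start (0) to gene end (100, dashed line), with lower sites in grey and higher sites in colour. Median positions were 64% in susceptible and 60.5% in resilient mice.

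Along the gene the sites lay somewhat toward the 3′ end. The median position was 64% of gene length in susceptible and 60.5% in resilient mice. The middle of the stretch left beyond the start window lay at 53.7% and 53.6%. That reference takes no account of site length. The rule keeps the whole of a site out of the start window but lets it run past the gene end. The rule itself therefore moves the middle of a site toward the 3′ end, and its share in the difference was not measured. Sites were 1000 to 3600 bp long in susceptible mice, with a median of 1200 bp, and covered a median of 9.06% of their gene. Direction hardly moved with position. Over steps of 20% of the gene the share of higher sites ran from 7.55% to 9.76% in susceptible and from 19.7% to 22.5% in resilient mice. The lower sites reached past the gene end in 64 of 895 cases in susceptible mice, and the higher sites in 11 of 85.

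Lower sites touched coding exons more often than higher sites. In susceptible mice 609 of 895 lower sites (68%) and 36 of 85 higher sites (42.4%) touched one. In resilient mice 197 of 345 lower (57.1%) and 34 of 91 higher sites (37.4%) did. By bases, 15.2% of the lower and 12.4% of the higher susceptible sites was coding, beside 10.6% of the gene stretch beyond the start window. The resilient values were 11% and 6.14%, beside 10.4%. The differences between lower and higher sites were not tested, since each gene gives its sites a common structure.

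**Figure D5:**
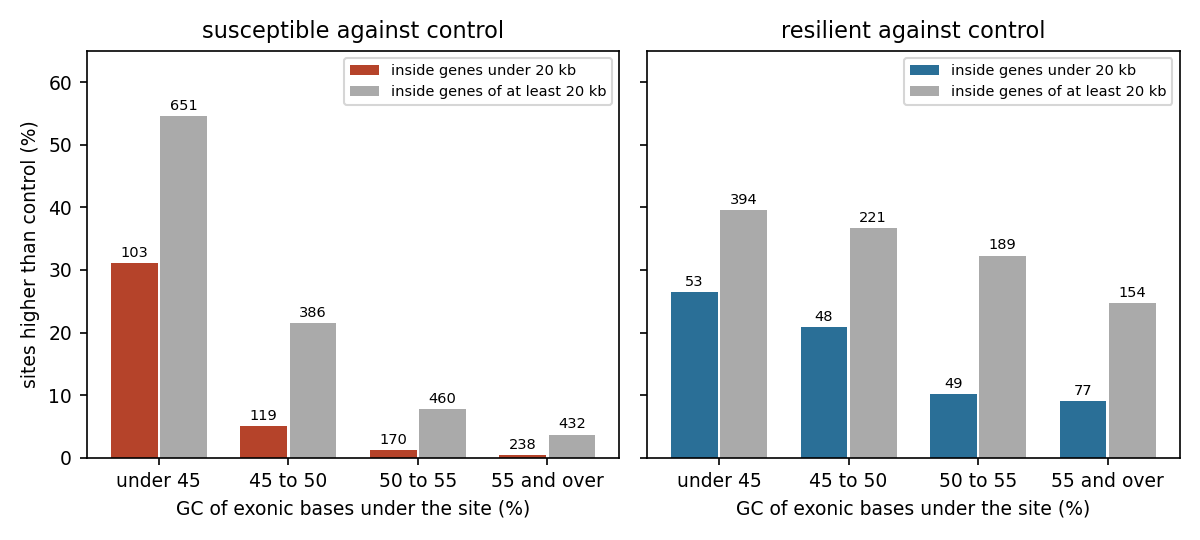
Bars give the percentage of sites higher than control by the GC content of the exonic bases under the site, for sites inside genes under 20 kb (coloured) and in genes of at least 20 kb (grey), with the number of sites above each bar. In susceptible mice the share was 31.1% under 45% GC and 0.42% at 55% GC and over.

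The composition of the exonic bases under the sites moved with direction. The other bases were not read. Intron or other sequence within the gene made up 71.6% of the bases of lower and 66.7% of higher susceptible sites. Among susceptible sites with at least 100 exonic bases, the median GC content of those bases was 53.5% under 589 lower sites and 40.3% under 41 higher sites. The quartile ranges did not overlap, at 48.6% to 57.1% for lower and 37.4% to 44% for higher sites. Of the sites under 45% GC 31.1% were higher (32 of 103), of those at 45 to 50% 5.04%, at 50 to 55% 1.18%, and at 55% and over 0.42% (1 of 238). Sites in genes of at least 20 kb followed the same order at 54.5%, 21.5%, 7.83% and 3.70%. In resilient mice the medians were closer, 52% GC under lower and 46.9% under higher sites, and the shares higher in the same steps were 26.4%, 20.8%, 10.2% and 9.09%. The stretches printed above show the contrast, with the Shkbp1 stretch at 63.4% and the Nfyb stretch at 33.7% GC. The ratio of observed to expected CG dinucleotides was close, 0.349 under lower and 0.315 under higher susceptible sites. Within each of these steps the share of higher sites was smaller inside short genes than in longer genes, in both tables. The steps are broad, so GC content need not be equal within them. They also cover only sites with at least 100 exonic bases. In susceptible mice these were 34.7% of the lower and 9.13% of the higher sites in genes of at least 20 kb. GC content affects how DNA is amplified and sequenced, and its part in these results was not tested.

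Signal over IgG, the authors' enrichment ratio, was above 1 at each of these sites in controls, from 1.08 to 14.4 in the susceptible table. Lower susceptible sites had a median enrichment of 3.52 in controls and 2.36 in susceptible mice, and 858 of 895 had less enrichment in the stressed group. Higher sites went from 2.84 to 3.48, but 19 of the 85 had less enrichment in the stressed group. Lower resilient sites went from 3.37 to 2.13 and higher ones from 2.71 to 3.30, with less enrichment in the stressed group at 334 of 345 lower and 22 of 91 higher sites. In the stressed groups 2 susceptible and 6 resilient sites were below 1. The ratio is built on the reads by which the authors called the sites, so its direction is no separate support for theirs.

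The other tables had few sites in short genes and little in common with these. Only their sites with an adjusted p by the authors under 0.05 were counted, a limit not set for the susceptible and resilient H3K27me1 sites. For ELS - SbD against Std - Control, 204 of 9053 such autosomal sites met the same rule. Of these 145 (71.1%) were higher, near the 69.3% over all 9053. H3K27me2 had 14 such sites in susceptible mice, 7 of them higher (50%), beside 69.5% over all autosomal H3K27me2 sites. In resilient mice it had 34, 23 of them higher (67.6%), beside 79.5%. These differences were not tested. Of the 980 susceptible H3K27me1 sites 2 overlapped a site of the ELS - SbD table. Poldip2, a partner of DNA polymerase delta, was lower in both, and Ptcd1, a mitochondrial RNA-binding protein, was lower in susceptible and higher in ELS - SbD mice (the authors' log2 changes of -0.48 and 0.83). Of the 436 resilient sites 2 did, Slc25a28 and Hjurp. Slc25a28 was lower in resilient mice and higher in ELS - SbD mice, by the authors' log2 changes of -0.80 and 0.79. Hjurp, the chaperone of centromeric histone, was higher in both by the authors' call, with small log2 changes of 0.19 and 0.03. Its resilient reads were 725, 591, 702 and 680 against 627, 576, 602 and 553, and the groups overlapped. Duxf3, a repeated double homeobox gene, was the 1 susceptible gene whose site met sites of H3K27me2. It lies in a repeat array in which reads are hard to place.

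Depth was alike across the H3K27me1 defeat libraries, from 20.6 to 30.4 reads per 1000 bp bin in the file headers, against 5 to 7.78 in the ELS - SbD cohort. Across the susceptible sites the mean was 56.5 to 773 recovered reads per library, with a median of 112, so all 980 sites, and all 436 resilient ones, were above the minimum of 10 reads set for naming a gene.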

How the data were processed

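CUT&RUN for H3K27me1, H3K27me2 and IgG was done on 72 nucleus accumbens samples in 21 groups. The submitters' processing notes name the build mm10 and, among tools, Bowtie2 2.4.1, MACS2 2.2.6, SAMtools 1.10, cutadapt 2.10 and Trim Galore 0.6.5. Their roles are not given in the sources used here. Per the file headers, diffReps compared groups in windows of 1000 bp, by a G-test in the defeat tables and a negative binomial test in the ELS - SbD table. The names of the defeat tables point to the latter, and the headers were followed.

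The deposited normalised reads are a signal per library, reads divided by a library constant per the file headers. Multiplied back with that constant refined within its rounding, at least 99.76% of values came within 0.1 of whole reads. The authors' log2 fold changes compare group means. For each group the authors also give an enrichment, the ratio of its reads to IgG reads. The deposited p-values and adjusted p-values are the authors', over 270324 susceptible and 275586 resilient windows. The tables hold only windows past the authors' limit, so shares describe called sites.

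Sites were placed on GENCODE M21 with Python 3.11.15. limma 3.58.1 in R 4.3.3 was fitted to log2(normalised reads + 1) over all rows of a table, 4 libraries against 4 with no covariate. The fit was tried on simulated rows with known changes. Adjustment there was over the simulated rows alone, so the adjustment over all windows was not tested. Shares carry exact (Clopper-Pearson) 95% intervals. Named genes were the 10 higher and 10 lower of smallest limma p per table with a mean of at least 10 reads, leaving out predicted symbols. To these were added the 5 genes with most sites, up to 10 genes in both tables, up to 3 per gene list, overlaps with other tables, and the 3 nearest the length limit on each side. One gene next to that limit is not reported here. The members, lists and tests were chosen with earlier results of these data known, and 5 list patterns that had caught unrelated genes were corrected afterwards. Alternatives were other length limits, start windows, filters, scalings, pseudocounts and omitted libraries.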

Additional observations from a re-analysis of the deposited data

Results flagged for a closer look

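Of 132 sets of 4 libraries examined at the leading sites and over all sites, 4 had a library far from the other 3, where chance alone would give about 1 in 20. At Shkbp1 control library 31 had 86.4 normalised reads in the susceptible table beside 69.1 to 70.8 in the other controls. It had 88.3 in the resilient table, beside 71.1 to 72.6. These are the same library and site. At Slc25a38 susceptible library 35 had 253 reads beside 203 to 210, nearer the controls than the rest of its group. At Ergic3 resilient library 33 had 254 reads beside 197 to 205, farther from the controls than the rest.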

How the results depend on the processing

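Lower sites outnumbered higher ones under each alternative run for the share of higher sites. The share of higher susceptible sites was 6.25% with a gene length limit of 10 kb, 11.6% with 30 kb and 11.8% when starts of every transcript of every gene type were kept out, which left 626 sites. The resilient share was 25% at 10 kb and 25.4% at 30 kb, and 21.4% with 500 bp kept out around gene starts. Scaling by TMM or by the median of ratios changed no direction. Leaving out each library in turn gave shares of 8.67% to 8.67% and 20.9% to 20.9%, medians of -0.46 to -0.37 and -0.42 to -0.37, and 827 to 957 and 395 to 417 sites with unadjusted limma p under 0.05 (susceptible, then resilient), with 0 to 0 passing adjustment. Adjusting over the deposited rows alone passed 978 susceptible and 435 resilient sites, since those rows were chosen for small p. No direction of the 93 susceptible and 72 resilient named sites was reversed in 1116 and 864 refits, but these sites were called on the same libraries, so neither this nor the constant share is a sign of stability. Requiring 500 bp of overlap left 0 susceptible sites shared with H3K27me2 in susceptible mice and 1 resilient site shared with the ELS - SbD table. The limma-voom fit was added after seeing the data. The edgeR and DESeq2 fits were not run, although reads per library could be recovered from the deposited columns. The limma-voom fit on recovered reads stood in for them. No paired analysis was possible because the groups share no replicate number. With 4 libraries in each group and a median of 112 reads per library at a susceptible site, limma's standard errors at the leading sites ran from 0.09 (Mbd1) to 0.19 (Shkbp1) on the log2 scale, and not even the Shkbp1 difference of -0.99 passed adjustment over all windows.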
